A study of Rattus norvegicus with 2 samples.

Results

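Lipoprotein lipase, its relatives, the angiopoietin-like proteins and partner genes of lipoprotein uptake were examined in bone marrow-derived stromal cells of the rat. The group holds 9 genes, chosen by function with earlier results of these arrays known: the lipases Lpl, Lipc and Lipg, the lipase maturation factor Lmf1, the angiopoietin-like genes Angptl1, Angptl2 and Angptl4, the lipoprotein receptor Vldlr and the apolipoprotein Apoe. They were 9 of 26912 genes and unnamed transcripts on the array, and 7 of them matched a probe by RefSeq accession, each through 1 probe. Lmf1 and Angptl1 matched no probe and have no value here. Because the choice was made with the values in view, the differences below are descriptions and carry no test.

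The control cells came from normal Sprague-Dawley rats of wild type genotype. The other cells came from double transgenic rats on the same Sprague-Dawley background, which carry the human genes for angiotensinogen and renin. No drug or other treatment is named for either group, and neither the animals' age nor the promoters of the transgenes are given in the sources used here. Both cultures started from 150000 cells in each well of a 6-well plate, and total RNA was taken before they became confluent. Each group had 1 array, so there is no replicate check, no SD between samples and no p-value, and only technical error between the repeated spots of a probe could be measured.

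Lipoprotein lipase is a secreted enzyme that splits the triglycerides of circulating lipoproteins into fatty acids that the tissue can take up. It needs a maturation factor to fold in the endoplasmic reticulum, is held on heparan sulfate proteoglycans outside the cell, and works on the vessel wall after transport by GPIHBP1. Angiopoietin-like 4 is a secreted inhibitor that inactivates the enzyme, and its gene is known to respond to hypoxia, to PPAR ligands and to glucocorticoids. Fat cells, muscle and macrophages are the usual sources of the lipase, and the very low density lipoprotein receptor and apolipoprotein E take part in the uptake of the particles.

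Angptl4 and Lpl, the inhibitor and the enzyme, were both far brighter on the transgenic array, by 133-fold and 31.0-fold. The other measured genes, Apoe, Angptl2 and Vldlr, differed by less than 2-fold between the arrays. Hepatic lipase, Lipc, and endothelial lipase, Lipg, were at background on both arrays, meaning that the scanner software did not flag their spots as well above background. In a bulk culture, a change in the number of cells of a type cannot be told apart from a change in the RNA of each cell.

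The start of the Angptl4 gene is shown because this gene had the largest difference of the group, beside that of Angptl2, its relative with a small difference. Both are the 250 bases before the annotated start site, 5′ to 3′ on the gene's own strand, from RefSeq's promoter table of build GRCr8. Capitals mark matches on either strand to the hypoxia response core ACGTG or GCGTG, the TATA box TATAAA, the GC box GGGCGG and the CCAAT box.
Angptl4, chr7:15258682-15258931, minus strand: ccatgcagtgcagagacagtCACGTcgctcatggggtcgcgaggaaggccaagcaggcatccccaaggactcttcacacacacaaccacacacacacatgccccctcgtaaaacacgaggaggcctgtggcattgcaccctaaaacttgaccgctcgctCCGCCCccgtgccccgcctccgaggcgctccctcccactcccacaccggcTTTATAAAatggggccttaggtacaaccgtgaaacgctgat
Angptl2, chr3:36914626-36914875, plus strand: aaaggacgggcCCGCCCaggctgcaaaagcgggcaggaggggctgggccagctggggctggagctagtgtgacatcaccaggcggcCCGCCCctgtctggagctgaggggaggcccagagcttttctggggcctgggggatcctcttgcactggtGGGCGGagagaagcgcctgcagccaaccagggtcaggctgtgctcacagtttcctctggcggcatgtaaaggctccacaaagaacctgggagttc

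The Angptl4 window held 1 match to the hypoxia core, on the opposite strand and 230 bases before the start site, and 1 GC box match at 91 bases. Its TATA box match began 39 bases before the start site and overlapped a match of the same motif on the opposite strand that began at 41 bases. The Angptl2 window held 3 GC box matches and neither a TATA box nor a hypoxia core match. Of 33469 promoter windows of this length, 36.7% held a hypoxia core, 12.9% a TATA box, 30.5% a GC box and 34.0% a CCAAT box. A match is a description of letters, and no factor was measured at these windows. The promoter table holds 8 of the 9 genes, all but Lpl. Hypoxia core matches also lay in the windows of Vldlr, Lipg and Lmf1 and in 1 of the 3 Apoe windows. None lay in those of Lipc and Angptl1. The difference between the arrays was -0.26 log2 for Vldlr and -0.94 log2 for Apoe, and Lipg was at background.

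Among the lipases, Lpl was measured by 10 spots on each array. Its processed signal, which is the brightness after subtraction of the background, ran from 29.6 through a median of 31.4 to 36.5 units on the control array. On the transgenic array it ran from 1139.7 through 1186 to 1271 units. All 10 spots of the transgenic array were brighter than every spot of the control array, and every spot was well above background. After each array was scaled to its 75th percentile, which was 905 units in control and 1079.7 in transgenic, the difference in log2 signal, transgenic minus control, was 4.95. The standard error from the repeated spots was 0.042 log2. The scanner software's own error was 0.26 log2, which gives a 95% range of 4.44 to 5.47 log2 for the scan alone. Lpl ranked 41 from the highest of 15501 genes above background on both arrays.

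The size of the Lpl difference rested on the control signal, which was close to the limit of detection. Before subtraction its control spots had a median brightness of 80.5 units over a local background of 33.5, against 1173 over 33.0 units on the transgenic array. The lowest signal of any probe well above background on the control array was 15.3 units. With normexp background correction, which here adds 50 units to every signal, the fold was 10.6. In the authors' deposited table it was 11.2, and with the arrays aligned on their E1A spike-in probes it was 65.8. Lpl was higher in the transgenic array by more than 8-fold under each of the 9 alternatives.

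**Figure D1:**
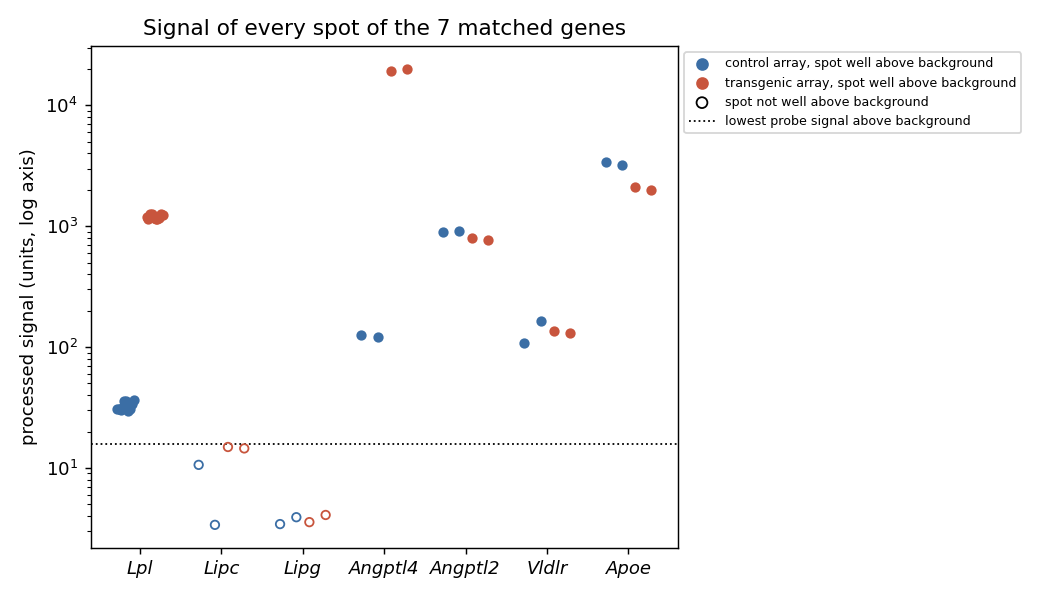
Processed signal in units, on a log axis, of every spot of the 7 genes with a probe, on the control array (blue) and the transgenic array (red). Open circles are spots not well above background and the dotted line is the lowest probe signal above background on the transgenic array (15.9 units). The 10 Lpl spots and the 2 Angptl4 spots of the transgenic array lie above all their control spots, while Lipc and Lipg stay below the line on both arrays.

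Lipc, the lipase made mainly by liver, had spot signals of 3.38 and 10.6 units in control and 14.5 and 14.9 units in transgenic. The transgenic spots were the brighter ones, but none of these spots was well above background, so no fold is given. Lipg, the lipase that endothelial cells secrete and that acts mainly on phospholipids, had spot signals of 3.43 and 3.91 units in control and 3.56 and 4.08 units in transgenic. These too were not well above background, and the ranges of the arrays overlapped. Of 26912 genes and unnamed transcripts, 9697 were likewise at background on both arrays.

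Of the angiopoietin-like genes, Angptl4 had the larger difference. Its 2 spots read 122 and 126 units on the control array and 19208 and 20081 units on the transgenic array. The arrays did not overlap, and the spots of one array differed by far less than the arrays did. The difference was 7.05 log2, or 133-fold, with a spot standard error of 0.042 log2 and a scanner error of 0.21 log2. Angptl4 ranked 11 from the highest of the 15501 genes. The fold was 88.6 with normexp background correction and its added 50 units, 89.3 in the authors' deposited table and 282 with spike-in alignment.

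Angptl2, a secreted relative that is linked to inflammation and does not inhibit the lipase in the way that Angptl4 does, read 893 and 918 units in control and 767 and 797 units in transgenic. The spots of the arrays did not overlap, but after scaling the difference was only -0.46 log2, with a scanner range of -0.87 to -0.06 log2. It became 0.62 log2 with spike-in alignment, so its direction rested on the scaling. A further list of the family held Angptl6, which had only 1 spot on each array, with 36.3 units in control and 53.0 in transgenic. Its difference was 0.29 log2, with a scanner range of -0.21 to 0.79 log2. Angptl7 and Angptl8 matched no probe. Of the 3 family members above background on both arrays, 1 was at least 2-fold higher and 0 were lower, and with spike-in alignment Angptl6 was past 2-fold too, for 2 higher.

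Vldlr, the receptor that binds triglyceride-rich particles together with the lipase, read 109 and 164 units on the control array and 129.5 and 137 units on the transgenic array. The transgenic spots lay between the control spots. The difference of -0.26 log2 was smaller than its spot standard error of 0.30 log2, and its scanner range ran from -0.68 to 0.16 log2. No difference could be seen at this precision, and the value became 0.82 log2 with spike-in alignment.

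Apoe, the protein that lets receptors recognise lipoproteins, read 3195 and 3396 units in control and 1975 and 2112 units in transgenic. All transgenic spots were below the control spots. After scaling the difference was -0.94 log2, or 1.92-fold lower, just short of the 2-fold size rule, with a spot standard error of 0.065 log2 and a scanner range of -1.34 to -0.54 log2. With spike-in alignment it was 0.14 log2, so the direction of Apoe also rested on the scaling.

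By the 2-fold size rule, which stands here in place of a test, 2 of the 5 genes above background on both arrays were higher, 0 were lower and 3 lay within 2-fold. Over all 15501 genes the rule called 10.5% higher and 10.3% lower, 20.8% in all. With spike-in alignment it called 7874 of them higher and 342 lower, and the list counts below are to be read beside these values. Genes at least 32-fold higher were 0.252% of all and genes at least 8-fold higher 1.09%. As the genes were chosen with these values known, nothing is read from the comparison. The median difference of the 5 was -0.26 log2, and that of all genes was -0.07. The 8 E1A spike-in probes had differences of -1.26 to -0.40 log2 on the 75th percentile scale, with a median of -1.08, so alignment on them added 1.08 log2 to every gene. Every difference given here is thus a shift against the other genes of the same array.

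**Figure D2:**
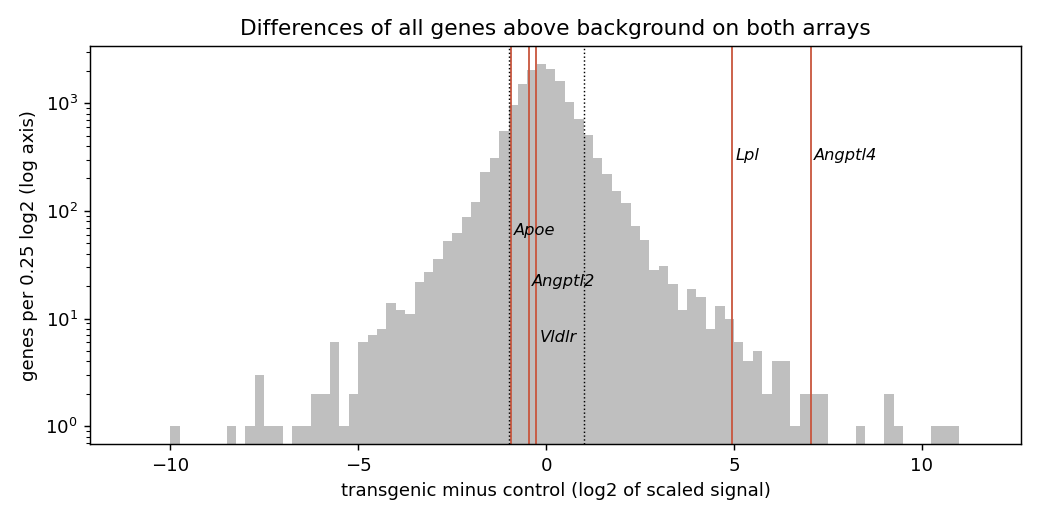
Number of genes, on a log axis, by difference between the arrays (transgenic minus control, log2 of scaled signal) for the 15501 genes above background on both. Dotted lines mark 2-fold, and the red lines put Angptl4 at 7.05 and Lpl at 4.95 in the thin upper tail and Apoe (-0.94), Angptl2 (-0.46) and Vldlr (-0.26) in the bulk, where all 3 values turn positive with spike-in alignment.

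The genes nearest in difference were taken as those next in the ranking over these 2 arrays. Beside Lpl stood Nos2, the inducible nitric oxide synthase (4.95 log2), and Aldh1l1, a folate enzyme (4.93), below it, and Galnt18 (5.06) and Trpc4, a cation channel (5.12), above it. Beside Angptl4 stood Cited1, a transcriptional coregulator (6.96), and Cyp7b1, an oxysterol hydroxylase (6.84), below it, and Ramp3 (7.11) and Dchs1, a protocadherin (7.43), above it. Likeness over 2 arrays means only an equal difference.

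**Figure D3:**
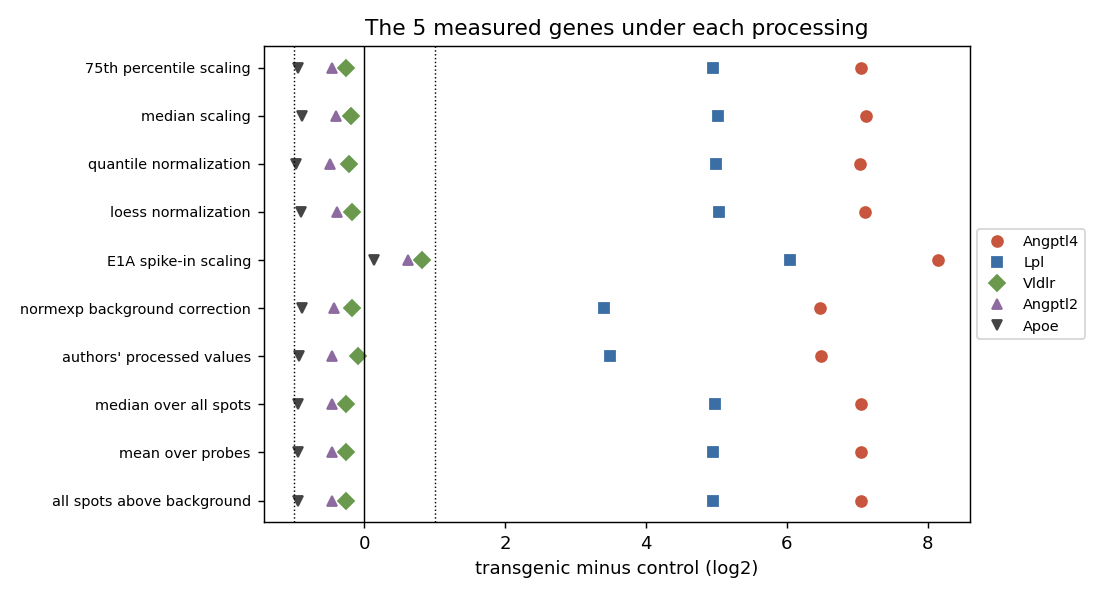
Difference between the arrays (transgenic minus control, log2) of the 5 measured genes under the main scaling and 9 alternatives, with dotted lines at 2-fold. Angptl4 stayed between 6.47 and 8.14 and Lpl between 3.41 and 6.04, while Apoe, Angptl2 and Vldlr stayed within 2-fold throughout and were above 0 with the E1A spike-in probes.

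Of 15 genes that work with the lipase before and after secretion, 12 matched a probe and 11 were above background on both arrays. Here 3 were at least 2-fold higher, 3 lower and the median was 0.00 log2, which became 7, 2 and 1.08 with spike-in alignment. The heparan sulfate proteoglycans, which hold the lipase at the cell surface, were divided. Sdc4 went from 9112 to 59211 units (2.45 log2, and 2.35 log2 on its other probe) and Sdc1 from 3651 to 11132 units (1.35 log2). Sdc2 went from 10106 to 2333 units (-2.37 log2) and Sdc3 from 2832 to 948 units (-1.83 log2, within 2-fold with spike-in alignment), while Gpc1 differed by -0.24 log2. Pcsk6, a convertase that can cleave lipases and angiopoietin-like proteins, was 9.24-fold lower, with -1.81 log2 on its other probe, and Furin, a convertase of the same kind, differed by 0.99 log2. Calr, a chaperone that helps the lipase to fold, was 2.49-fold higher. Lmf2, a relative of the maturation factor, and Canx differed by 0.00 log2 each and Sel1l, which stabilises the lipase with the maturation factor, by -0.04 log2. Gpihbp1, the carrier of the lipase in capillaries, was at background on both arrays.

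A list of 13 further lipases and their regulators, Lipc and Lipg among them, had 6 genes above background on both arrays, with 2 higher, 1 lower and a median of 0.74 log2, or 4, 0 and 1.82 with spike-in alignment. G0s2, which inhibits the lipase of lipid droplets, went from 1083 to 13920.4 units and was 10.8-fold higher. Pla1a, a phospholipase of the same lipase superfamily, was 3.50-fold higher, from 2221 to 9274 units. Mgll, which splits monoglycerides, was 2.82-fold lower and was no longer past 2-fold with normexp correction, spike-in alignment or the authors' deposited table. Pnpla2, the droplet lipase that G0s2 inhibits, differed by 0.81 log2, and Lipe, the hormone-sensitive lipase, was at background on both arrays.

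Among 21 lipoprotein receptors and their regulators, 11 were above background on both arrays, with 3 higher and 2 lower, or 5 and 2 with spike-in alignment. Their median of -0.26 log2 became 0.82 under that alignment. Lrp1, a large receptor that takes up remnants with Apoe, went from 957 to 3908 units (1.78 log2). Its relative Lrp5 differed by 1.60 log2, and Mylip, a ubiquitin ligase of lipoprotein receptors, by 1.72 log2. Olr1, the receptor for oxidised low density lipoprotein, went from 14955 to 1449.7 units and was 12.3-fold lower, and Lsr was 6.59-fold lower. The other probe of Lsr read only 6.90 units in control and 4.33 in transgenic. Vldlr was the median gene of this list.

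Of 20 apolipoprotein and lipid transfer genes, 11 were above background on both arrays, with 1 higher and 2 lower, or 5 and 2 with spike-in alignment. Their median of -0.14 log2 became 0.95 under it. Clu, the chaperone also called apolipoprotein J, was 23.6-fold higher, from 306 to 8609.5 units. Apoc3, an inhibitor of lipoprotein lipase, was 10.3-fold lower, from 1178 to 136 units, and Pltp, which moves phospholipids between lipoproteins, was 4.41-fold lower. Apoc2, the cofactor that the lipase needs, was dim, at 67.7 and 60.7 units, and differed by -0.41 log2, a value that turns positive with spike-in alignment. Abca1 and Abcg1, cholesterol exporters, differed by 0.73 and 0.47 log2.

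Of 19 genes that handle the released fatty acids, 13 were above background on both arrays, with 3 higher, 3 lower and a median of 0.43 log2, which became 8, 0 and 1.52 with spike-in alignment. Dgat2, which makes triglyceride, was 6.18-fold higher, and the activating enzyme Acsl4 and the aminotransferase Got2 were 2.64-fold and 2.11-fold higher. The transport protein Slc27a3 was 3.64-fold lower, the binding protein Fabp3 2.72-fold lower and the activating enzyme Acsl1 2.54-fold lower, and these 3 were within 2-fold with spike-in alignment. Cd36, the fatty acid receptor, was above background on the control array only, at a dim 24.8 units and by at least 1.85-fold. This bound of -0.89 log2 was smaller than the 1.08 log2 that spike-in alignment adds, so it did not hold under that alignment. The other probe of Cd36 read only 3.66 units in control and 3.81 in transgenic. Of 22 genes of fatty acid oxidation that PPAR factors are known to induce, 17 were above background on both arrays, with 4 higher, 0 lower and a median of 0.45 log2, or 14, 0 and 1.53 with spike-in alignment. The main scaling called 10.5% of all 15501 genes higher and 10.3% lower. Spike-in alignment called 7874 of them higher and 342 lower. The thioesterases Acot1 and Acot2, close copies whose probes may not be separate, were 5.42-fold and 4.35-fold higher, Cpt1b was 4.48-fold higher and the droplet coat Plin2 2.04-fold higher. Acot1 was dim on the control array, at 29.5 units with spots from 16.1 to 41.5. With every spot required to be above background, 3 genes of the list were higher. The other probe of Cpt1b read only 4.16 units in control and 4.28 in transgenic. Pdk4, a well known target of the same factors, was at background on both arrays.

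**Figure D4:**
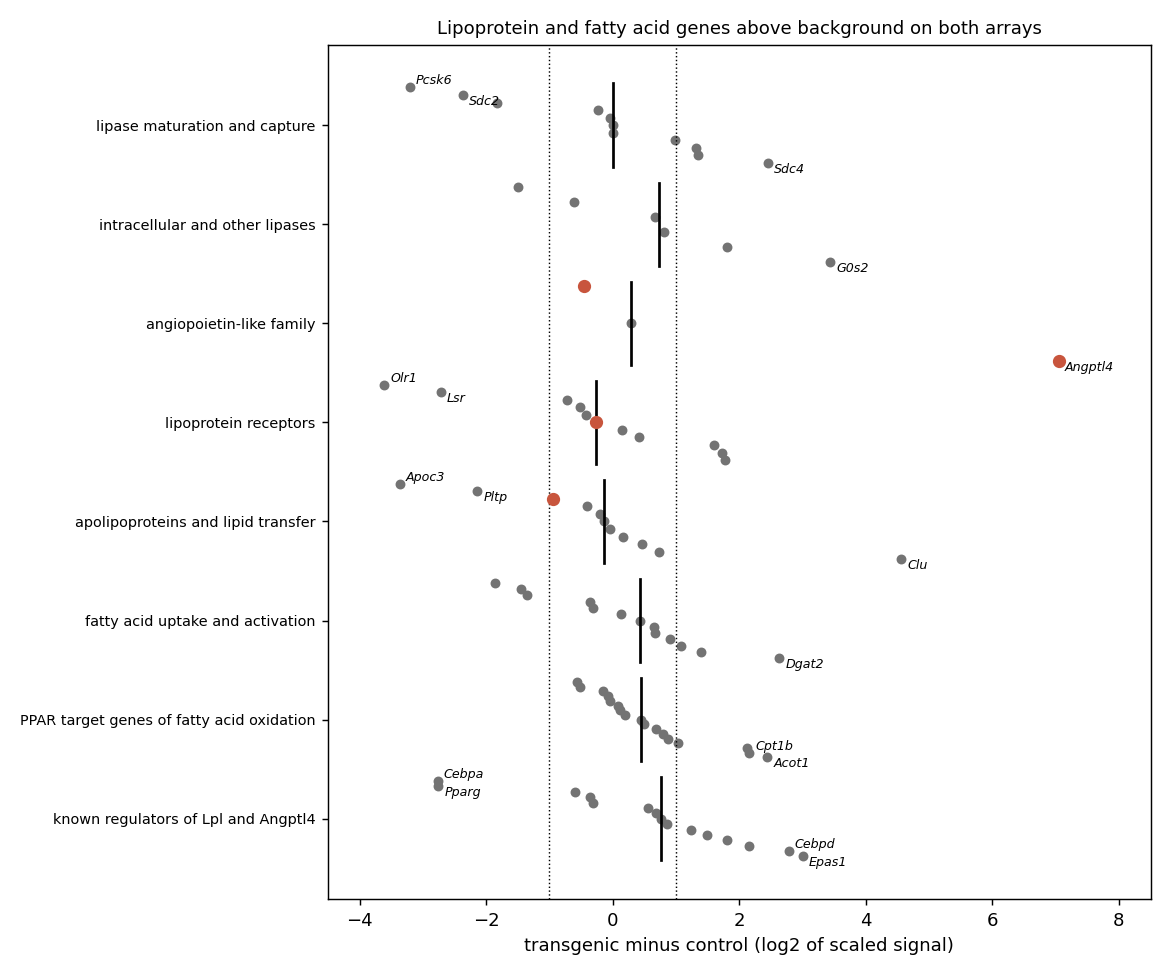
Difference between the arrays (transgenic minus control, log2 of scaled signal) of each gene above background on both, in 8 lists of lipoprotein and fatty acid genes. Grey points are genes, red points are Angptl4, Angptl2, Vldlr and Apoe, black bars are list medians and dotted lines mark 2-fold; Angptl4 at 7.05 lies beyond every other point, the next being Clu at 4.56. Spike-in alignment would move all points up by 1.08.

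Known regulators of Lpl and Angptl4 were given as a list of 18 genes, of which 15 were above background on both arrays, with 6 higher, 2 lower and a median of 0.76 log2, or 10, 2 and 1.85 with spike-in alignment. The hypoxia-inducible factors were higher, Epas1 from 155 to 1479.8 units (8.02-fold) and Hif1a from 70.2 to 375 units (4.48-fold). The C/EBP factors were divided, with Cebpd at 2.78 and Cebpb at 1.81 log2 against Cebpa at -2.77. The 2 control spots of Cebpa disagreed, at 107 and 458 units, and its spot standard error was 1.1 log2. Pparg, the fat cell factor that induces Lpl, was 6.76-fold lower, from 837 to 148 units. Ppard differed by 0.76 log2 (0.71 on its other probe), and Ppara was above background on the transgenic array only, by at least 1.31-fold. The partner receptors Rxra and Rxrb differed by 0.56 and -0.36 log2. Among the sterol sensors, Nr1h3 was 2.36-fold higher, while Nr1h2 (0.68) and Srebf2 (0.86) lay within 2-fold. Klf15 was 2.82-fold higher, and Nr3c1, the glucocorticoid receptor, and Tgfb1 differed by -0.32 and -0.59 log2, values that turn positive with spike-in alignment. The other probe of Nr3c1 gave -0.92 log2. Foxo1 and Srebf1 matched no probe. Over the 8 lists without the 9 genes, 83 of 126 genes were above background on both arrays, with 22 higher, 13 lower and a median of 0.29 log2. With spike-in alignment 54 of the 83 were higher and 8 lower. Of all 15501 genes, 10.5% were higher and 10.3% lower by the main scaling, and 7874 were higher and 342 lower with spike-in alignment.

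Markers of the cell types that usually make these proteins were measured beside them. Of 14 stromal markers, 12 were above background on both arrays, with 4 higher and 2 lower. The counts were 7 and 0 with spike-in alignment, 3 and 1 in the authors' deposited table and 3 and 2 with normexp correction. They were 5 and 2 with median scaling or loess. Among the stromal markers were Cxcl12 (3.10 log2, and 5.79 on its other probe), Eng (2.38), Pdgfra (1.72) and Itgb1 (-1.31, within 2-fold with spike-in alignment). Vcam1 was above background on the transgenic array only, by at least 5.14-fold, and Lepr on neither. Of the 12 stromal differences, 7 were above 0 and 5 below. The summed signal of the stromal list, in units of each array's 75th percentile and without spike-in alignment, was 508 in control and 314 in transgenic. Plin1 matched no probe. Of 10 matched adipocyte markers, 6 were at background on both arrays: Fabp4, Adipoq, Lep, Cidec, Retn and Lipe. The remaining adipocyte markers had Pparg and Cebpa lower, Slc2a4 at 1.01 log2 and Cfd on the control array only, by at least 2.91-fold. Slc2a4 was no longer 2-fold higher with normexp correction or in the authors' deposited table. The summed signal of the adipocyte list, in units of each array's 75th percentile, was 1.45 in control and 0.600 in transgenic. The part of fat cells in the Lpl and Angptl4 values was not tested.

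Of 14 macrophage markers, 8 were above background on both arrays, with 6 lower and 1 higher, and a median of -2.70 log2 that remained negative, at -1.61, with spike-in alignment. The lysozyme Lyz2 was 151-fold lower, the adaptors Tyrobp and Fcer1g were 46.1-fold and 22.3-fold lower, Laptm5 differed by -2.82 log2 and Cd68 by 1.58 log2, and C1qa and C1qc were above background on the control array only. The summed signal of the list was 19.3 in control and 2.91 in transgenic. Ptprc, Itgam, Mrc1 and Marco were at background on both arrays. Beside these values stood Apoe, which macrophages also make, at -0.94 log2 (0.14 with spike-in alignment), and Lpl, another macrophage product, at 4.95 log2. The part of these cells in either value was not tested.

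Of 9 matched endothelial markers, 4 were above background on both arrays, with 2 lower, Erg at 21.0-fold and Flt1 at 2.13-fold, and 0 higher. Flt1 was within 2-fold with loess, spike-in alignment, normexp correction and the authors' deposited table, which left 1 gene. The difference was -0.58 log2 for Cdh5 and -0.44 for Sox18. Their median of -0.83 log2 became 0.25 with spike-in alignment. Pecam1, Kdr, Tek, Tie1 and Emcn were at background on both arrays, and Lipg was at background too. All 8 hepatocyte markers (Alb, Apoa1, Apob, Ttr, Fgb, Serpina1, Cyp2e1 and Tat) were at background on both arrays, like Lipc. Of 6 matched osteoblast markers, 3 were above background on both, with Spp1 18.4-fold and Alpl 6.48-fold lower and Sp7 at 0.72 log2. Ibsp was above background on the control array only, by at least 7.47-fold, and Bglap and Dmp1 on neither.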

How the data were processed

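The intensity values of 62976 spots per array were background-subtracted and spatially detrended, with no normalization between arrays, by Agilent Feature Extraction (version 11.0.1.1), per the file headers. The deposited flags are the authors' scanner output, and both arrays shared a slide and a scan. The authors' deposited log2 table (23153 probes, column medians 7.20 and 7.18) has no stated normalization or centring, and over probes above background its differences had r = 0.978 and a slope of 0.815 against those used here.

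Outlier spots (446 in control, 505 in transgenic) were left out, log2 intensities were averaged per probe, and each array's 75th percentile was subtracted. A probe with over 50% of its spots well above background counted as above it, which held for 60.2% and 60.8% of 30366 probes. RefSeq accessions of GRCr8 named 18005 probes, and the brightest probe stood for a gene. A gene above background on 1 array only has a lower bound, against the higher of its dim signal and the lowest signal above background. The scanner range is 1.96 times the scanner error.

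Members and lists were chosen with earlier results of these data known. The naming rule took all members, the angiopoietin-like genes and regulators, up to 6 genes past 2-fold of other lists, up to 4 markers a list with those at background, and 2 neighbours on either side. Abca1, Abcg1, Apoc2, Gpc1, Furin, Lmf2, Canx, Sel1l, Gpihbp1, Pnpla2, Lipe, Cd36, Pdk4, C1qa, C1qc, Cd68, Vcam1 and Ibsp were named after their values were seen. Single values of a few listed genes are not reported here, but those genes remain in the counts of their lists. Alternatives were other scalings, normexp (offset 50, on median pixel signals, with limma 3.58.1), the authors' values, other probe summaries and other size rules. Python 3.11.15 was used, and the scaling was tested on simulated arrays. These had few changed genes, equally many up and down, and a shift shared by all genes. The simulation therefore cannot decide between this scaling and spike-in alignment.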

Additional observations from a re-analysis of the deposited data

How the results depend on the processing

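With 1 array a group, no replicate could be left out and the limits are those of signal over background. No paired analysis was possible because each group has 1 array. Lpl and Angptl4 stayed over 2-fold higher, and Apoe, Angptl2 and Vldlr stayed within 2-fold, under every scaling, background, probe and filter alternative listed. E1A spike-in alignment moved the median of all genes to 1.01 log2 (7874 genes higher, 342 lower), Lpl to 6.04 and Angptl4 to 8.14 log2, the median of the 5 measured genes of the group to 0.82, the other lipoprotein lists to 54 higher, 8 lower and a median of 1.38 (22, 13 and 0.29 otherwise), and the marker lists to 10 higher and a median of 0.35 (6 and -0.74 otherwise). Normexp gave 3.41 log2 for Lpl and 6.47 for Angptl4, and the authors' values 3.49 and 6.48, with 905 genes higher and 908 lower over fewer probes, against 1628 and 1590. The normexp values include the offset of 50 units, and a constant added to the signals of both arrays makes a fold smaller. The cause of the smaller values in the authors' table was not tested. A 1.5-fold size rule counted 1 of the 5 as lower, Apoe, and 35 lipoprotein genes as higher. A 4-fold rule counted 10 of these higher and 8 lower, and 2 markers higher. Of 425 values for single lists under the alternatives, 58 moved, by over 1.5 times for a count or by over 0.41 log2 for a median.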
